A study of Rattus norvegicus with 15 samples.

Results

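*Tnc*, *Spp1* and *Smoc2* encode the matricellular proteins tenascin-C, osteopontin and SPARC-related modular calcium-binding protein 2. They were chosen by symbol from the lists of genes that differed between wildtype (WT) adrenal medulla, adrenal medullary hyperplasia (HYP) and pheochromocytoma (PCC), because their courses over the 3 groups differ. They are 3 of the 8621 genes in these lists. RNA-seq was done on adrenal medulla of Sprague-Dawley rats, from which the cortex had been dissected away, with 5 samples per group. The WT samples, labelled NA for normal adrenal, came from wildtype rats of 7 to 9.5 months. The HYP samples came from MENX rats of 4 to 5 months, and the PCC samples from MENX rats of 7 to 9.5 months. MENX rats carry a homozygous germline frameshift in *Cdkn1b*, which encodes the cell cycle inhibitor p27, in all their cells, and both HYP and PCC samples share it. HYP therefore differed from WT in age as well as in genotype, and from PCC in age as well as in stage. By the study's methods the 5 samples of a group came from separate animals, so SDs and *p*-values measure the spread between rats. The methods also divide the PCC samples by gland weight into PCC and advanced PCC, but the labels do not give the class of each sample, so the PCC means and SDs span both classes.

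Matricellular proteins are secreted into the extracellular matrix, where they do not serve as scaffold but bind other matrix proteins, growth factors and cell surface receptors. Tenascin-C is a large multimeric glycoprotein that is scarce in most adult tissues and appears in embryonic mesenchyme, in healing wounds and in the stroma of many tumors. Osteopontin is a phosphorylated glycoprotein, first known from bone, that binds integrins and CD44 and is made by epithelia, macrophages and many tumor cells. Smoc2 belongs to the SPARC family of calcium-binding matrix proteins. Bulk tissue was measured here, so fewer cells of a type and less RNA per cell cannot be told apart.

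In the coordinates of the deposited lists (Rn06), *Tnc* (ENSRNOG00000058645) lies at chr5:79789671-79874671 on the minus strand, *Spp1* (ENSRNOG00000043451) at chr14:6673686-6679901 on the minus strand, and *Smoc2* (ENSRNOG00000014166) at chr1:56242346-56374120 on the plus strand. All 3 are annotated as protein-coding, and FPKM was computed over 7213, 1519 and 3119 bases, respectively. The 250 bases before the start of *Tnc* and *Spp1*, which went in opposite directions between HYP and PCC and matched an entry by symbol, are shown as the RefSeq promoters of the assembly GRCr8, whose coordinates differ from those above. The *Tnc* promoter is at chr5:82476132-82476381 and the *Spp1* promoter at chr14:5619805-5620054, both on the minus strand and written from 5′ to 3′ along the gene. Capitals mark matches to TATANA, the core of a box that positions transcription starts, on either strand and at any distance from the start. A match by itself does not show such a box.
Tnc: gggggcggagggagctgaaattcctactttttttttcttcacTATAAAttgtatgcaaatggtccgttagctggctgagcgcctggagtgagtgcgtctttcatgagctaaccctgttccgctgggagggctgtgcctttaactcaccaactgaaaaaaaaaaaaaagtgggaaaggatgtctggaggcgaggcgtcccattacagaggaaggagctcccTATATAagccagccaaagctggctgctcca
Spp1: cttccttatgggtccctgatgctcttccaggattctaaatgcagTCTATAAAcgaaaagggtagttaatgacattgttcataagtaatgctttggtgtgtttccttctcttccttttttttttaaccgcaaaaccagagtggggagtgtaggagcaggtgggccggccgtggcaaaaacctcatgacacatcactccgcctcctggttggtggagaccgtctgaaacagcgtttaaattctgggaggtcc
The *Tnc* sequence has matches at positions -208 to -203 and -30 to -25 from the start, and the *Spp1* sequence has a pair of overlapping matches on opposite strands, at -206 to -201 and -204 to -199. Such a match was present in 24.2% of 33469 promoters of the same length. Neither sequence held, on either strand, the hypoxia-response cores ACGTG (in 16.6% of the promoters) or GCGTG (in 25.9%). The AP-1 site TGANTCA (in 6.34%) and TGTGGT (in 14.5%), a form of the RUNX core, were also absent from both. Other forms of the RUNX core, such as TGCGGT, were not searched over the promoters. The *Spp1* sequence above does hold TGCGGT on the opposite strand, where it reads ACCGCA and is left in small letters. How common that form is was not counted, and a match by itself does not show a bound site.

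*Tnc* was nearly silent in the WT samples, low in HYP and abundant in PCC. In CPM (read counts per 1000000 reads of the normalized library size), its level in WT replicates 1 to 5 was 0.144, 0.101, 0.158, 0.939 and 0.284. In HYP replicates 1 to 5 it was 5.51, 9.88, 13.5, 6.97 and 6.54 CPM, and in PCC replicates 1 to 5 it was 145, 37.2, 109, 226 and 45.5 CPM. No 2 groups overlapped, with the highest WT sample, replicate 4, far below the lowest HYP sample, and the highest HYP sample below the lowest PCC sample. The group means were 0.325 ± 0.350, 8.49 ± 3.26 and 112 ± 77.7 CPM (SD, n = 5 each). The WT values rest on 2 to 15 reads per sample and 27 reads in all, with a 95% Poisson interval of 17.8 to 39.3 that covers counting error only. The fitted log2 fold change was 4.69 (SE 0.53, a 25.8-fold difference) for HYP vs. WT, 3.62 (SE 0.49, 12.3-fold) for PCC vs. HYP and 8.44 (SE 0.76, 347-fold) for PCC vs. WT. Since WT replicate 4 held 15 of the 27 WT reads, the log2 fold change against WT without it was 5.56 for HYP and 9.32 for PCC. Among the PCC samples the highest was 6.09 times the lowest, with replicates 2 and 5 below the other 3.

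*Spp1* took another course, high in WT and HYP and low in PCC. Its level in WT replicates 1 to 5 was 469, 516, 729, 811 and 515 CPM. In HYP replicates 1 to 5 it was 154, 892, 1529, 1858 and 1238 CPM, and in PCC replicates 1 to 5 it was 21.5, 9.76, 40.5, 53.4 and 144 CPM. Every PCC sample was below every WT and HYP sample, although PCC replicate 5 came close to HYP replicate 1. HYP and WT overlapped, because 4 HYP samples were above all WT samples and HYP replicate 1 was below them all. The means were 608 ± 152 in WT, 1134 ± 654 in HYP and 53.7 ± 53.0 CPM in PCC (SD, n = 5 each). In PCC the log2 fold change was -3.54 (SE 0.62, 0.0862 times the WT level) against WT and -4.49 (SE 0.80, 0.0445 times the HYP level) against HYP. For HYP vs. WT, in which the gene was not listed, the fit to all 15 samples gave 0.85 (SE 0.61, 95% interval -0.34 to 2.04). Leaving out HYP replicate 1 gave 1.17 for this comparison, and without PCC replicate 5 the value was -4.31 against WT and -5.30 against HYP.

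*Smoc2* was nearly absent from WT and stood at about the same mean in HYP and PCC. Its level in WT replicates 1 to 5 was 0.0481, 0, 0.264, 0.125 and 0.213 CPM, from 1, 0, 5, 2 and 3 reads. In HYP replicates 1 to 5 it was 4.63, 16.2, 7.54, 6.10 and 9.13 CPM, and in PCC replicates 1 to 5 it was 1.59, 17.2, 5.15, 3.41 and 13.4 CPM. All samples of HYP and PCC were above all WT samples, and the PCC samples spread from below to above the HYP range. The means were 0.130 ± 0.110, 8.73 ± 4.52 and 8.14 ± 6.77 CPM (SD, n = 5 each). The log2 fold change was 6.00 (SE 0.57, 64.2-fold) for HYP vs. WT and 5.95 (SE 0.86, 61.7-fold) for PCC vs. WT. Both rest on 11 WT reads in all, with a 95% Poisson interval of 5.49 to 19.7. For PCC vs. HYP, in which the gene was not listed, the fit to all 15 samples gave -0.055 (SE 0.57) with a 95% interval of -1.17 to 1.05. Differences of up to about the size of these limits, in either direction, therefore remain possible. The sign of the fitted value turned with the scaling and with single samples left out.

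**Figure D1:**
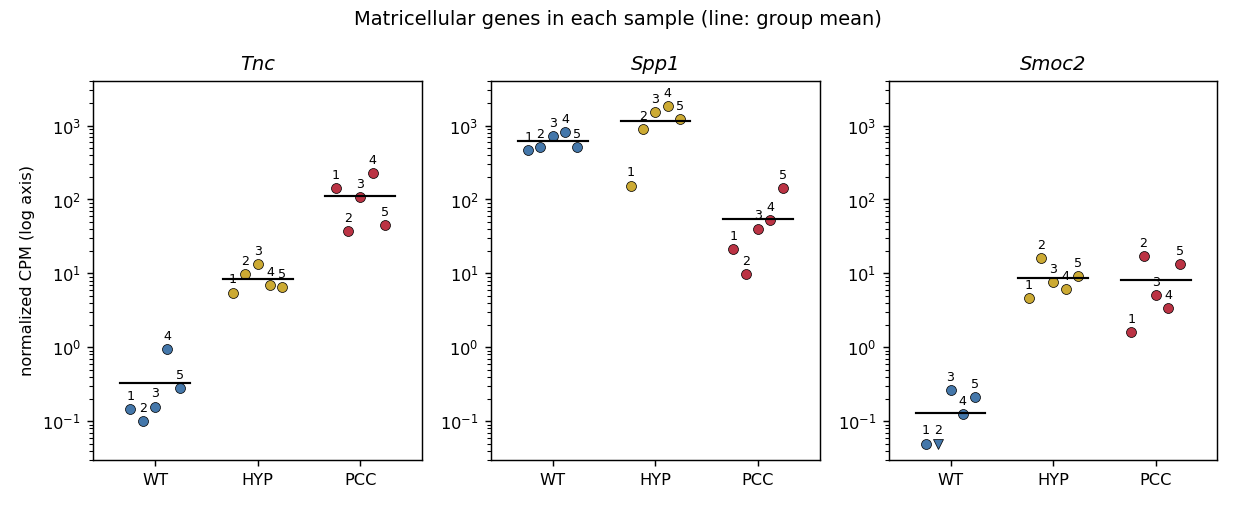
Normalized CPM of *Tnc*, *Spp1* and *Smoc2* (log axis) in the 5 samples of each group, with replicate numbers beside the points and a line at the group mean; the triangle is a sample with 0 reads, drawn at 0.05 CPM. *Tnc* steps up from WT over HYP to PCC with no overlap, *Spp1* is lowest in PCC, and *Smoc2* is near 0 in WT and overlaps between HYP and PCC.

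The lists were made by selecting on these same comparisons, and so were the 3 genes, so their differences are a description and were not tested. All 3 passed the filter on low counts wherever they were listed. Their groups did not overlap in 3 of 3 genes for PCC vs. WT, where 66.3% of all 7001 genes tested showed this, in 2 of 2 listed genes for HYP vs. WT (57.2% of 4108) and in 2 of 2 listed genes for PCC vs. HYP (50.8% of 3148). By the size of the log2 fold change in its direction, *Tnc* was number 4 in PCC vs. WT, number 15 in HYP vs. WT and number 36 in PCC vs. HYP. *Smoc2* was number 42 for PCC vs. WT and number 3 for HYP vs. WT. *Spp1* was number 89 among the lower values for PCC vs. WT and number 5 for PCC vs. HYP.

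Per length, the order of the 3 genes changed with the stage. In WT, mean FPKM (reads scaled to gene length and library size) was 384 ± 105 for *Spp1*, 0.0411 ± 0.0354 for *Smoc2* and 0.0402 ± 0.0435 for *Tnc* (SD, n = 5), and the last 2 did not differ beyond their spread. *Spp1* was number 88 of the 5492 genes with values in all samples, and the other two were among the lowest. In HYP, *Spp1* stood at 799 ± 458 FPKM, number 23 of the 5492, above *Smoc2* at 3.23 ± 1.86 and *Tnc* at 1.19 ± 0.437. In PCC, *Spp1* was at 40.8 ± 40.5 FPKM, *Tnc* at 16.9 ± 11.9 and *Smoc2* at 3.33 ± 2.87, and the ranges of *Spp1* and *Tnc* overlapped. Within a sample, the FPKM of *Spp1* was 4295 to 25487 times that of *Tnc* in WT, 139 to 1326 times in HYP and 0.738 to 15.7 times in PCC. The 3 ranges did not overlap, which follows from the way the genes were chosen.

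The PCC samples differed among themselves, and *Tnc* and *Smoc2* did so in nearly opposite order. Replicates 2 and 5 had the lowest *Tnc* (37.2 and 45.5 CPM) and the highest *Smoc2* (17.2 and 13.4 CPM). Replicates 1 and 4 had the highest *Tnc* (145 and 226 CPM) and the lowest *Smoc2* (1.59 and 3.41 CPM), with replicate 3 between them for both genes. The ratio of *Tnc* to *Smoc2* FPKM ran from 0.834 to 35.0 over the 5 PCC samples and from 0.234 to 0.692 over the 5 HYP samples. This order was seen in 5 samples only and was not tested, and it cannot be told apart from the division into PCC and advanced PCC.

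Of the 33 other matricellular genes looked up, more were higher than lower in PCC. For PCC vs. WT, 22 were listed, 20 were tested after the filter on low counts, 12 were called higher and 4 lower (edgeR quasi-likelihood test, adjusted *p* under 0.05), with a median log2 fold change of 1.29. Of all genes tested, 46.7% were called higher and 38.5% lower, with a median of 0.44, and 85.2% were called in either direction because the lists hold only genes already selected as different. For HYP vs. WT, 11 were tested, 7 were called higher and 4 lower with a median of 1.77, against 39.5% and 32.5% of all genes (72.1% either way) and a median of -0.37. Between PCC and HYP, 13 were tested, 6 were called higher and 1 lower with a median of 1.38, against 21.8% and 22.6% (44.4% either way) and a median of 0.43.

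The relatives of each of the 3 genes did not all follow the gene itself. In the tenascin family, *Tnr* (tenascin-R, a tenascin of nervous tissue) rose with a log2 fold change of 2.46 (SE 0.37, adjusted *p* = 0.000722) in PCC and 2.30 (SE 0.40, adjusted *p* = 0.00305) in HYP, both against WT. *Tnxb* (tenascin-X, a tenascin of connective tissue that binds collagen) fell, from 781 ± 162 CPM in WT to 135 ± 108 in PCC (log2 -2.55, SE 0.58, adjusted *p* = 0.00622), and its log2 fold change was -1.19 (SE 0.26, adjusted *p* = 0.00921) in HYP vs. WT. Between PCC and HYP its value of -1.46 (SE 0.58) did not pass the test (adjusted *p* = 0.170).

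Among the relatives of osteopontin, the SIBLING phosphoproteins of bone and tooth, only *Dmp1* (dentin matrix protein 1) was listed of the 4 looked up. Its mean was 5.41 ± 2.84 CPM in PCC and 0.130 ± 0.108 CPM in WT (log2 5.35, SE 0.68, adjusted *p* = 0.000325), and it was also higher in PCC than in HYP (log2 4.41, SE 0.55, adjusted *p* = 0.00213). The WT and HYP values rest on 11 and 20 reads over 5 samples each, against 582 reads in PCC. *Dmp1* was thus higher in PCC, where *Spp1* was lowest.

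In the SPARC family, *Smoc1*, the closest relative of *Smoc2*, fell from 202 ± 46.1 CPM in WT to 35.9 ± 24.4 CPM in PCC (log2 -2.50, SE 0.53, adjusted *p* = 0.00423). In HYP vs. WT its log2 fold change was -0.98 (SE 0.21, adjusted *p* = 0.00945), and in PCC vs. HYP it was -1.60 (SE 0.53) and was not called (adjusted *p* = 0.0859). *Sparcl1* (SPARC-like 1, also called hevin) rose at each step, with 10.1 ± 7.33 CPM in WT, 50.3 ± 2.36 in HYP and 765 ± 630 in PCC (log2 2.27, SE 0.41, adjusted *p* = 0.00383 between HYP and WT; 3.81, SE 0.46, adjusted *p* = 0.00193 between PCC and HYP). The testicans, proteoglycans of the same family, were split. *Spock1* rose in all 3 comparisons (log2 2.17 in HYP and 5.32 in PCC against WT, and 3.03 in PCC against HYP) and *Spock2* in PCC and HYP against WT (log2 2.50 and 1.77). *Spock3* fell in PCC against both WT (log2 -1.79, SE 0.59) and HYP (log2 -2.14, SE 0.54). *Sparc* itself was not called (log2 -0.59, SE 0.24, adjusted *p* = 0.0938 for PCC vs. WT).

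In the remaining families, *Fbln1* (fibulin-1, an elastic fiber and basement membrane protein) rose in all 3 comparisons (log2 3.80, 2.54 and 1.13). *Fbln2* rose in PCC and HYP against WT (log2 3.31 and 1.80), and *Postn* (periostin, log2 3.22, SE 0.62, from 37 WT reads in all) and *Efemp2* (log2 0.79) in PCC vs. WT. *Tgfbi* rose in PCC against WT and HYP (log2 1.84 and 1.45). Of the thrombospondins, *Thbs2* rose in PCC and HYP against WT (log2 1.51 and 0.98) and *Thbs1* in PCC vs. HYP (log2 1.44), while *Comp* fell in HYP vs. WT (log2 -1.41). *Nov* (CCN3) fell in PCC and HYP against WT (log2 -1.56 and -1.16), and *Fstl1* rose in PCC vs. WT (log2 0.96). With the sum of the listed counts as library size, *Spock3* and *Nov* were no longer called for PCC vs. WT, nor *Tnxb*, *Smoc1*, *Comp* and *Nov* for HYP vs. WT, all with their sign kept.

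**Figure D2:**
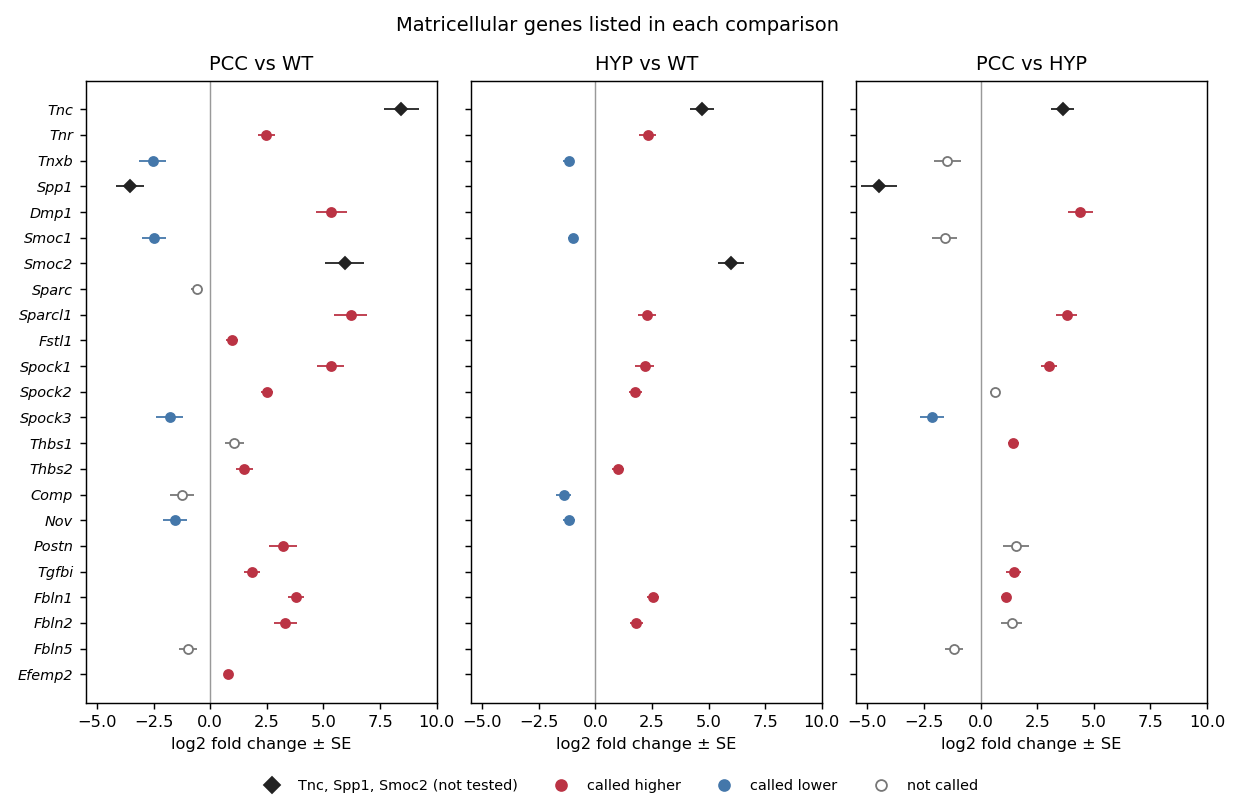
Log2 fold change with its SE (bars) for every matricellular gene listed and tested in each of the 3 comparisons, 5 samples per group. *Tnc* (8.44 in PCC vs. WT) lies beyond *Tnr* (2.46) and opposite to *Tnxb* (-2.55), and *Smoc2* (5.95) opposite to *Smoc1* (-2.50); a gene without a point was not listed in that comparison.

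Receptors of tenascin-C and osteopontin were looked up next, 19 genes in all. For PCC vs. WT, 11 were tested, of which 4 rose and 4 fell, with a median log2 fold change of -0.88, against 46.7% higher, 38.5% lower and a median of 0.44 over all genes tested. Those that rose were *Cntn1* (contactin-1, a neural adhesion molecule) by 3.57 (SE 0.56) on the log2 scale, *Ptprz1* (a receptor phosphatase that binds tenascins) by 2.30 (SE 0.43), *Itga7* (a laminin-binding integrin subunit) by 2.10 (SE 0.39) and *Cd44* (the hyaluronan receptor that also binds osteopontin) by 1.46 (SE 0.45). Those that fell were *Anxa2* (annexin A2) at -2.02 (SE 0.26), *Itga9* (an integrin subunit that binds both ligands) at -1.48 (SE 0.36), *Sdc4* (syndecan-4) at -1.01 (SE 0.19) and *Itgav* (the αv integrin subunit) at -0.88 (SE 0.22). With the sum of the listed counts as library size, *Itga9*, *Sdc4* and *Itgav* were no longer called. For HYP vs. WT, 7 were tested with a median of 1.07, and *Cntn1* (2.73), *Itga7* (1.59) and *Ptprz1* (1.32) rose, where 39.5% of all genes were called higher and 32.5% lower. *Anxa2* (-0.86) and *Sdc4* (-0.46) fell in this comparison, but under the same scaling neither was called and the value of *Sdc4* turned to 0.0046. Between PCC and HYP, 4 were tested with a median of -1.36, and *Egfr* (-2.01, SE 0.42), *Anxa2* (-1.26, SE 0.26) and *Sdc4* (-0.66, SE 0.18) fell, the last no longer called under that scaling. Of all genes in this comparison, 22.6% were called lower. *Cd44* stood at 108 ± 24.8 CPM in PCC and 38.8 ± 22.5 CPM in WT.

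Of 17 matrix proteins that surround or bind the 3 proteins, 8 were tested for PCC vs. WT and 7 rose, where 46.7% of all genes were called higher and 85.2% called in either direction. The largest values were those of vitronectin *Vtn* (log2 3.26, SE 0.76, from 32 WT reads in all), fibronectin *Fn1* (3.25, SE 0.59), versican *Vcan* (2.06, SE 0.40) and the collagen I chain *Col1a2* (1.51, SE 0.51). For HYP vs. WT, 4 of 5 rose, against 39.5% of all genes, and *Acan* (aggrecan) fell by 2.63 on the log2 scale. Between PCC and HYP, 1 of 2 rose, against 21.8% of all genes. This was *Fn1*, from 24.9 ± 4.66 to 130 ± 91.2 CPM (log2 2.42, SE 0.52, adjusted *p* = 0.0197).

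Enzymes that cleave or modify matricellular proteins, and their inhibitors, went both ways. Of the 21 looked up, 11 were tested for PCC vs. WT, of which 5 rose and 5 fell, against 46.7% and 38.5% of all genes (85.2% either way). *Mmp12* (macrophage metalloelastase) rose most, from 0.498 ± 0.280 to 9.29 ± 6.41 CPM (log2 4.20, SE 0.64, adjusted *p* = 0.000703), and was as far above HYP (log2 4.20, SE 0.58). *Adamts9* (log2 -2.65, SE 0.53), *Mmp19* (-1.77, SE 0.42) and *Adamts1* (-1.72, SE 0.60) fell. For HYP vs. WT, 1 of 5 rose and 4 fell (39.5% and 32.5% of all genes), with *Adamts1* lowest (log2 -2.73, SE 0.54). For PCC vs. HYP, 3 of 10 rose and 2 fell (21.8% and 22.6% of all genes). *Fam20c*, the kinase that phosphorylates osteopontin, rose in PCC vs. HYP (log2 1.50, SE 0.31, adjusted *p* = 0.0166).

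Of 26 growth factors, receptors and transcription factors known to act on these genes, 13 were tested for PCC vs. WT, and 5 rose and 5 fell. Of all genes, 46.7% were called higher and 38.5% lower in this comparison (85.2% either way). The largest values were those of *Bmp7* (log2 2.63, SE 0.24) and *Tgfb3* (2.24, SE 0.27), which rose, and of *Jun* (-2.34, SE 0.37) and *Smad3* (-2.33, SE 0.43), which fell. For HYP vs. WT, 4 of 9 rose and 3 fell (39.5% and 32.5% of all genes), with *Sox9* (2.12, SE 0.58), *Bmp7* (1.52, SE 0.23) and *Tgfb3* (1.30, SE 0.19) higher. For PCC vs. HYP, 3 of 9 rose and 3 fell (21.8% and 22.6% of all genes), with *Axin2*, a target of Wnt signaling, highest (1.67, SE 0.22). The members of this list and of the lists before it were chosen with earlier results of these data known, so their counts are a description.

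The cell type markers of the samples also differed between the groups. Chromaffin markers, the defining genes of the medulla, were abundant, with 9 of 12 genes summing to 2034 to 9691 CPM in WT, 11234 to 15871 in HYP and 19016 to 37208 in PCC. Adrenal cortex markers were present in all samples despite the dissection, with 8 of 12 genes summing to 26347 to 53414 CPM in WT, 11897 to 32417 in HYP and 825 to 13772 in PCC, and none of the 8 was at 0 in any sample. *Spp1* was lowest in the group with the fewest cortex transcripts. Within groups the order was shared only in part. In WT, replicate 4 had both the highest cortex sum (53414 CPM) and the highest *Spp1* (811 CPM), while replicate 5 with the next sum (51075 CPM) had *Spp1* at 515 CPM, close to replicate 2 with the lowest sum (26347 and 516 CPM). HYP replicates 1 and 4 had nearly the same cortex sum (21636 and 21689 CPM) and *Spp1* at 154 and 1858 CPM. Among the PCC samples, replicate 5 was highest in both (13772 and 144 CPM) and replicate 2, with the second lowest sum (2785 CPM), had the lowest *Spp1* (9.76 CPM). Replicate 1, with the second highest sum (12554 CPM), had *Spp1* at 21.5 CPM, and replicate 4, with the lowest (825 CPM), at 53.4 CPM. The cortex sum was above the chromaffin sum in every WT sample and below it in every PCC sample. These are sums over different genes and do not give shares of cells. The part of the cortex in the *Spp1* difference was not tested, nor was that of the shift between the marker sums in the differences of *Tnc*, *Smoc2* and their relatives.

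Macrophages, which also make osteopontin, could be followed by 3 of 14 markers (*Cd163*, *Gpnmb* and *Marco*), which summed to 22.6 to 39.3 CPM in WT, 56.5 to 88.5 in HYP and 46.6 to 139 in PCC. *Marco* had 0 reads in all WT samples. These sums were higher in PCC than in WT. The other macrophage markers were in none of the 3 lists, which hold only genes already selected as different. The sums of the other cell types also leave out markers that were not listed. The part of macrophages in the *Spp1* difference was not tested. Fibroblast markers, 4 of 11 genes with none at 0, summed to 31.8 to 60.4 CPM in WT, 90.9 to 123 in HYP and 58.9 to 173 in PCC, and endothelial markers, 6 of 9 genes with none at 0, to 497 to 625, 333 to 446 and 212 to 394 CPM.

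Pericyte and smooth muscle markers stood in the same order of groups as *Tnc*, but within no group in the same order of samples. *Rgs5*, *Acta2* and *Notch3*, 3 of the 8 markers, summed to 36.8 to 69.4 CPM in WT, 116 to 162 in HYP and 542 to 2268 in PCC, and none was at 0. PCC replicate 4 had the highest sum (2268 CPM) and the highest *Tnc* (226 CPM), and replicates 2 and 5 the lowest sums (680 and 542 CPM) and the lowest *Tnc*. Between replicates 2 and 5 the order was reversed, with *Tnc* at 37.2 and 45.5 CPM. It was also reversed between replicates 1 and 3, with sums of 1243 and 1271 CPM and *Tnc* at 145 and 109 CPM. In HYP, replicate 3 had the highest *Tnc* (13.5 CPM) with the second lowest sum (137 CPM), and in WT, replicate 2 had the lowest *Tnc* (0.101 CPM) with the highest sum (69.4 CPM). Most of the sum in PCC was *Rgs5*, with means of 23.3 ± 4.28, 89.2 ± 20.8 and 1090 ± 675 CPM in the 3 groups (SD, n = 5). *Acta2* and *Notch3* alone summed to 16.1 to 45.2, 27.3 to 62.7 and 67.9 to 158 CPM, with PCC replicate 4 at 89.1, below replicates 1, 2 and 3, and HYP replicate 3 the lowest of its group at 27.3. The part of these cells in the *Tnc* difference was not tested. Schwann and sustentacular cell markers, 7 of 9 genes with none at 0, summed to 70.6 to 217 CPM in WT, 209 to 256 in HYP and 337 to 434 in PCC. Of these, *Sox10* was at 2.42 ± 1.89, 10.9 ± 2.88 and 8.84 ± 3.84 CPM, a course over the groups like that of *Smoc2*, whose relation to it was not tested.

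**Figure D3:**
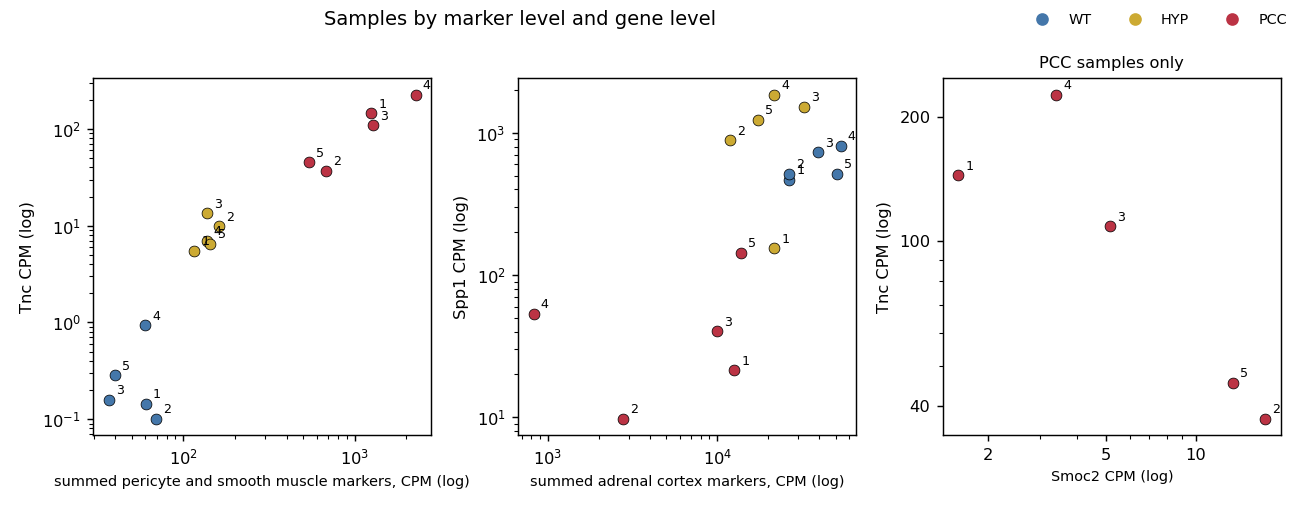
Each point is a sample with its replicate number, on log axes in CPM: *Tnc* against the summed pericyte and smooth muscle markers (left), *Spp1* against the summed adrenal cortex markers (middle), and *Tnc* against *Smoc2* in the 5 PCC samples (right). PCC replicate 4 has the highest *Tnc* and pericyte sum, HYP replicates 1 and 4 share a cortex sum but differ in *Spp1*, and *Tnc* and *Smoc2* run in nearly opposite order.

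The genes closest to each of the 3 in course were sought among 5041 genes with values in all 15 samples and a mean of at least 1 CPM. Closeness was the root mean square difference of log2 CPM over the 15 samples, each gene centered on its own mean. Closest to *Tnc* were the collagen chain *Col22a1* (0.65), *Sparcl1* (0.69), the cytochrome c oxidase subunit isoform *Cox4i2* (0.77), *Rgs5* (0.80) and the carboxypeptidase-like *Cpxm2* (0.86). All 5 stood in the order WT, HYP, PCC, as with *Col22a1* at 0.870 ± 0.450, 7.64 ± 2.83 and 165 ± 168 CPM. This shared order largely follows from choosing the genes by closeness to *Tnc*. *Spp1* had no close match, with the mitochondrial carrier *Slc25a30* (1.10) first, followed by the amino acid transporter *Slc36a2* (1.22), the protease *Adamts9* (1.25), the tight junction protein *F11r* (1.27) and the gap junction protein *Gja1* (1.27). Unlike the mean of *Spp1*, the means of these 5 genes were lower in HYP than in WT, as with *Gja1* at 965 ± 215, 544 ± 201 and 88.8 ± 57.0 CPM. Closest to *Smoc2* were the synaptic scaffold gene *Grid2ip* (0.50), the receptor phosphatase *Ptprt* (0.55), *Plekhg3* (0.59), the keratin *Krt19* (0.66) and the potassium channel *Kcnq5* (0.72). *Krt19*, for example, was at 0.142 ± 0.0528 CPM in WT, 5.99 ± 1.72 in HYP and 4.12 ± 3.77 in PCC. By the same measure *Tnc* and *Smoc2* differed by 2.14, *Spp1* and *Smoc2* by 3.25 and *Tnc* and *Spp1* by 4.72. With each course divided by its SD instead, 2 of the 5 genes stayed among the closest 5 for *Tnc*, 1 for *Spp1* and 2 for *Smoc2*.

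**Figure D4:**
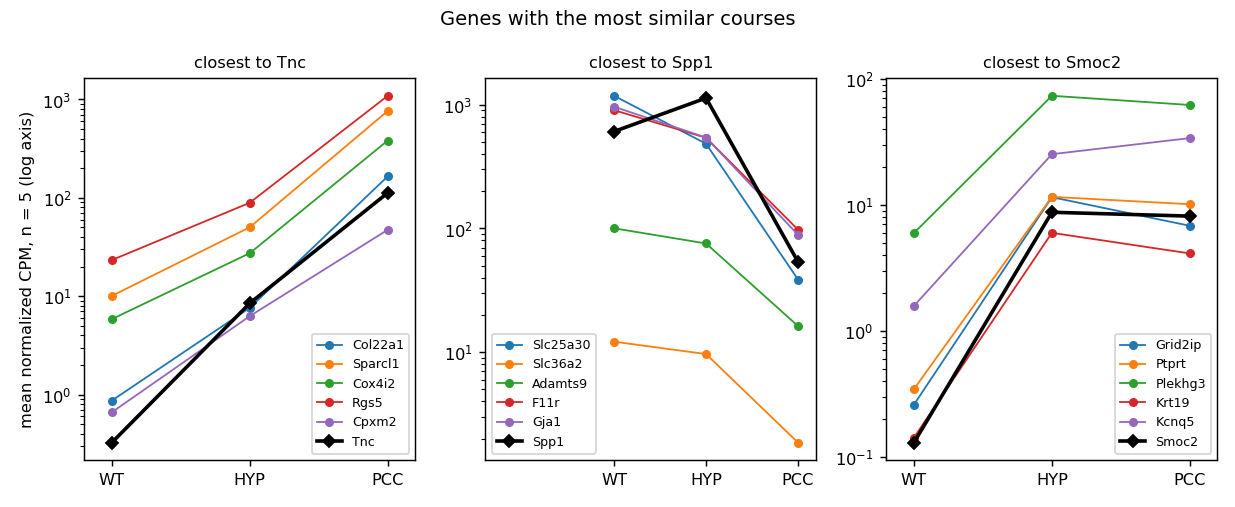
Mean normalized CPM (log axis, n = 5 samples per group) of *Tnc*, *Spp1* and *Smoc2* (black diamonds) and of the 5 genes closest to each in course over the 15 samples. The genes near *Tnc* step up from WT to HYP and again to PCC, those near *Smoc2* step up between WT and HYP, and those near *Spp1* lack its higher mean in HYP. The steps shared with *Tnc* and *Smoc2* largely follow from the choice by closeness.

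Over the 15 samples, 16315018 to 23831269 reads were counted on genes. *Cdkn1b* mRNA was at 56.8 ± 10.6, 102 ± 14.7 and 146 ± 26.7 CPM in WT, HYP and PCC (SD, n = 5), and a level of mRNA does not show a frameshift. Of the genes called, 54.8% were higher in PCC than in WT, 54.8% higher in HYP than in WT and 49.2% higher in PCC than in HYP. These shares were 76.3%, 89.3% and 68.5% with the sum of the listed counts as library size, 68.9%, 75.8% and 70.7% with the recovered library totals, and 48.4%, 52.6% and 36.7% in DESeq2.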

How the data were processed

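RNA of 15 rat adrenal medulla samples (5 WT, 5 HYP, 5 PCC) was poly-A selected, sequenced and mapped to Rn06; the submitters' processing notes name HISAT2 2.0.5 and featureCounts 1.5.0-p3. The authors compared the groups pairwise with DESeq2 and deposited 3 lists of 7683, 4406 and 3360 genes (PCC vs. WT, HYP vs. WT, PCC vs. HYP) with adjusted *p* under 0.05. Each list holds, for its 10 samples, raw read counts per gene, signal values (counts over a size factor per sample) and FPKM, all as deposited. The authors' log2 fold changes and p-values from DESeq2 were deposited beside them. Only the ratio of adjusted to raw p-values was used, to recover how many genes the authors had tested (18790, 18057 and 17454).

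Counts were fitted per list with edgeR 4.0.16 (R 4.3.3, limma 3.58.1): TMM over the listed genes, filterByExpr, glmQLFit and glmQLFTest, with Benjamini-Hochberg adjustment over the numbers tested by the authors and calls at 0.05. This assumes that no gene outside the lists has a smaller *p* than a listed one. A fit to all 15 samples over 5492 shared genes, chosen after seeing the data, gave the values of *Spp1* for HYP vs. WT and of *Smoc2* for PCC vs. HYP. CPM is counts over the effective library size, on the scale of library totals recovered from counts, FPKM and gene lengths. For log2 CPM, 0.5 was added. CPM of the 3 genes, of markers and of genes of similar course came from the scaling of all 15 samples, that of other genes from the scaling of the pair compared, except *Sparcl1*. The fits were tested on simulated data. The rest was done in Python 3.11.15 (pandas 2.3.3, numpy 2.4.6, matplotlib 3.10.9, scipy 1.17.1).

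The 3 genes and all lists were chosen with earlier results of these data known. Named are the 3 genes in every sample, called matricellular and receptor genes, up to 4 of the largest called changes with an average of at least 1 CPM from each other list, and the 5 genes of most similar course; *Sparc*, *Fam20c*, *Axin2* and *Cdkn1b* and single marker genes were named after their values were seen. Genes outside the lists were not analysed here. Alternatives were DESeq2 1.42.0, scaling to the listed or recovered totals, leaving out the filter or requiring 10 counts in each sample, the replicate number as a block, and leaving out each sample.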

Additional observations from a re-analysis of the deposited data

Results flagged for a closer look

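Of 33 groups of 5 samples examined for a single sample far from the rest, 1 was picked out: *Tnc* in WT, where replicate 4 stood at 0.939 CPM and the nearest other sample at 0.284 CPM. The gap was 0.781 of the group's range, above the critical value of 0.71 for 5 samples. Chance alone picks out about 1 in 20 such groups. The value rests on 15 reads.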

How the results depend on the processing

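Of 296 values recomputed, 271 kept their direction and their size within the limits set, 19 moved and 6 turned sign. Comparisons are given in the order PCC and HYP against WT, then PCC against HYP. With the sum of the listed counts as library size, which shifted the median log2 fold change of all genes by 0.50, 0.46 and 0.15, 5 receptors were called for PCC vs. WT in place of 8, and 7 other matricellular genes for HYP vs. WT in place of 11. Scaling to the recovered library totals shifted it by 0.29, 0.19 and 0.22, and DESeq2 by -0.10, 0.03 and -0.17. The value of *Smoc2* for PCC vs. HYP turned to 0.0056 with the listed totals and to 0.041 with the recovered totals. For PCC vs. HYP, DESeq2 called 2211 genes in place of 1397. The replicate numbers of the labels did not pair the samples, since same-numbered samples correlated in their deviations at -0.13 to 0.20, -0.12 to 0.29 and -0.20 to 0.22 and were each other's best match in 2, 2 and 1 of 5 cases. With the replicate block, 366 genes, 4 other matricellular genes and 0 receptors were called for PCC vs. HYP, in place of 1397, 7 and 3. The cause of these changes was not tested.

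Leaving out 1 sample at a time gave 5046 to 5890 genes called (5962 with all), 1998 to 3222 (2960) and 426 to 1773 (1397). In the last, 426, 457, 688 and 800 genes were called without HYP replicates 4, 3, 5 and 2, and 704 and 775 without PCC replicates 2 and 3. Other matricellular genes called were 13 to 17, 9 to 11 and 5 to 8, and receptors 7 to 9, 4 to 5 and 1 to 3, with 1 receptor for PCC vs. HYP without HYP replicate 4. The log2 fold change of *Tnc* was 8.02 to 9.32, 4.43 to 5.56 and 3.22 to 3.84, the highest of the first 2 without WT replicate 4. That of *Spp1* was -4.31 to -3.26, 0.61 to 1.17 and -5.30 to -4.22, the lowest for both PCC comparisons without PCC replicate 5. That of *Smoc2* was 5.46 to 6.41, 5.65 to 6.47 and -0.57 to 0.25, the last positive without PCC replicate 1 (0.17), 3 (0.031) or 4 (0.14) or HYP replicate 2 (0.25). With a pseudocount of 1 CPM, 3 of the 5 genes closest to *Smoc2* stayed among its closest 5. *Tnc* and *Smoc2* gave no value against WT with at least 10 counts required in every sample, nor did *Smoc2* for PCC vs. HYP, since too few reads were counted in WT.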

Other observations

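Proliferation genes (*Mki67*, *Top2a* and others, 9 of 10 looked up) rose in 9 of 9 cases for PCC vs. WT and for HYP vs. WT, and in 7 of 9 for PCC vs. HYP, where 46.7%, 39.5% and 21.8% of all genes tested were called higher. They summed to 22.8 to 31.4 CPM in WT, 77.5 to 109 in HYP and 133 to 344 in PCC. The highest sum was that of PCC replicate 2 (344 CPM), which had the lowest *Tnc* and *Spp1* and the highest *Smoc2* of the PCC samples. The next sum was that of replicate 4 (292 CPM), with the highest *Tnc* (226 CPM) and *Smoc2* at 3.41 CPM, and the lowest that of replicate 5 (133 CPM), with *Tnc* at 45.5 and *Smoc2* at 13.4 CPM, so the sums did not follow either gene.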
